A study of Homo sapiens with 22 samples.

Results

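The cytosolic chaperonin CCT, also called TRiC, is a barrel of 2 stacked rings, and each ring holds 8 related but different subunits, encoded by TCP1, CCT2, CCT3, CCT4, CCT5, CCT6A, CCT7 and CCT8. These 8 genes were picked by symbol from 20411 genes in each of 2 expression tables, all 8 were found in both, and all passed the filter on low values used below. The tables came from a study of FP54, a compound made to remove the FTO protein, an enzyme that takes the m6A methyl mark off RNA, in human leukemia cells. The lines were MOLM-13, an acute myeloid leukemia line with a KMT2A rearrangement, and NB4, an acute promyelocytic leukemia line. Both were wild type only in the sense that no engineered change was described for these samples. They were grown with 2 μM FP54 or with its solvent DMSO for 48 hours. Each line and treatment had 3 libraries of poly(A) RNA, 12 in all. The 10 other samples of the series, for m6A and polysome sequencing in MOLM-13, were not analysed here. Whether the 3 libraries of a group came from separate cultures was not stated, so p-values measure the spread between these libraries, which may be technical.

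CCT uses ATP to close over a newly made protein and let it fold inside the barrel. Actin and tubulin are its best-known clients, and others include WD40-repeat proteins such as the cell-cycle activator CDC20 and G-protein beta subunits. Prefoldin hands unfolded actin and tubulin to CCT, and the phosducin-like proteins and PDCD5 bind CCT and adjust its work. Every subunit has a fixed place in the ring, in the order TCP1, CCT3, CCT6A, CCT8, CCT7, CCT5, CCT2 and CCT4, so a complete barrel needs all of them in equal number. The genes lie apart in the genome (hg38, GENCODE v44): TCP1 at chr6:159778498-159789703, CCT2 at chr12:69585426-69601570, CCT3 at chr1:156308968-156367873, CCT4 at chr2:61868085-61888671, CCT5 at chr5:10249929-10266389, CCT6A at chr7:56051685-56063989, CCT7 at chr2:73233420-73253021 and CCT8 at chr21:29055805-29073797. Growing cells carry much CCT, and the mRNA levels described here say nothing of how much assembled chaperonin a cell held.

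Values were given as RPKM, a read count divided by gene length and by library size, which is a level relative to the rest of each library. Less RNA per cell in general would therefore not be seen, and in such bulk samples fewer cells of a kind and less RNA per cell cannot be told apart. Fold changes are differences of log2(RPKM + 0.1), FP54 minus DMSO, tested with limma over every gene with a mean of at least 1 RPKM in that line, and a gene was called where its Benjamini-Hochberg adjusted p was below 0.05. Reads on genes ran from 16308939 to 17357944 in the DMSO libraries of MOLM-13 and from 5835173 to 19202953 in its FP54 libraries, and every FP54 library of NB4 (10599176 to 13075105) was shallower than every DMSO library (20655356 to 22342359). Between 729 and 28818 reads stood behind each subunit value. Of 8 myeloid markers, 7 reached a mean of 1 RPKM in each line. The FTO mRNA, which a degrader of the protein need not alter, stood at 1.01 ± 0.0767 RPKM with DMSO and 1.01 ± 0.118 with FP54 in MOLM-13 (SD, n = 3), and at 2.73 ± 0.180 and 2.03 ± 0.0782 in NB4. That difference was called in NB4 (log2 fold change -0.41, limma adjusted p = 0.0119), though not without FP54 replicate 2, and was not called in MOLM-13 (limma adjusted p = 0.989).

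The first question was whether the subunit mRNAs moved with FP54. In MOLM-13, 7 of the 8 fell and none rose, against a background of 9.32% of 9710 tested genes called lower and 9.84% called higher. In NB4 all 8 fell, against 22% of 9853 tested genes called lower and 29.8% called higher. The median log2 fold change of the subunits was -0.81 in MOLM-13, where the median of all tested genes was 0.00, and -0.52 in NB4, where it was 0.07. Every DMSO library lay above every FP54 library for 7 subunits in MOLM-13 (17% of all tested genes) and for 8 in NB4 (26.2%). CCT8 in MOLM-13 was the exception in both counts.

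**Figure D1:**
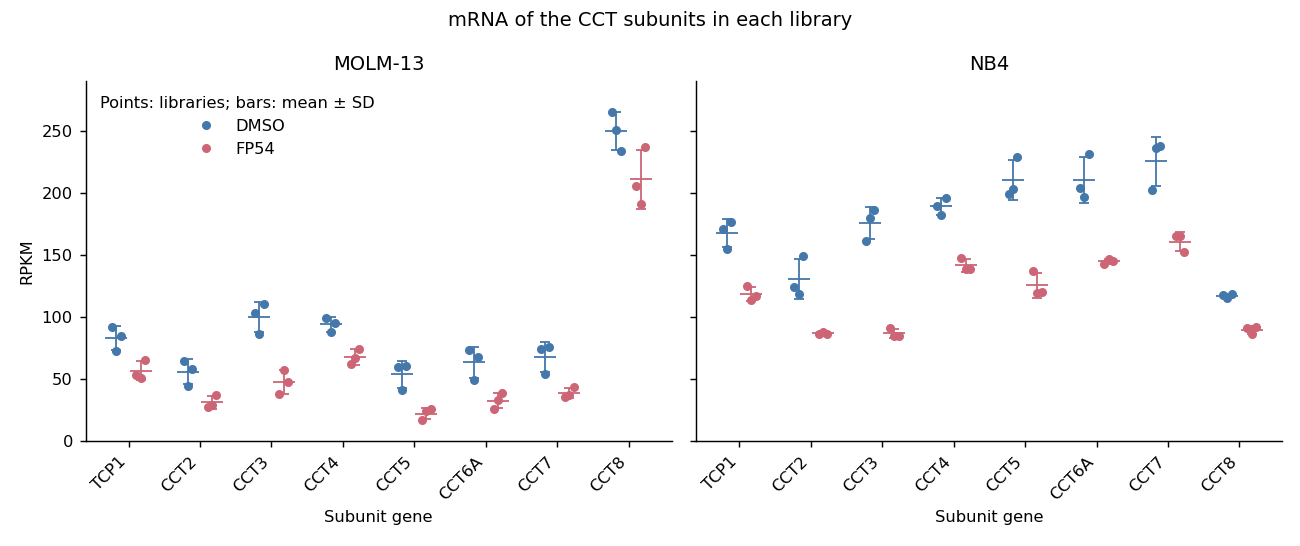
RPKM of the 8 CCT subunit genes in MOLM-13 (left) and NB4 (right), with DMSO in blue and FP54 in red. Points are the 3 libraries of each group and bars are the mean ± SD. The DMSO and FP54 points of CCT8 overlap in MOLM-13, where this gene lies far above the other 7, and the treatments are apart for every other gene in both lines.

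CCT5, the epsilon subunit, which can build rings of itself alone and in which inherited mutations cause a sensory neuropathy, had the largest fold change of the 8 in MOLM-13. Its 3 DMSO libraries read 59.8, 41.3 and 60.9 RPKM and its 3 FP54 libraries 17.0, 24.4 and 25.7. The groups did not overlap, and DMSO replicate 2 was the lowest DMSO library, as for 7 of the 8 subunits. The mean fell from 54.0 ± 11.02 to 22.4 ± 4.72 (SD, n = 3), or by 58.6% (log2 fold change -1.27, SE 0.20, limma adjusted p = 0.00454). In NB4 the same gene read 199, 203 and 229 RPKM with DMSO and 137, 119.7 and 120.0 with FP54. It fell there by 40.3% (log2 fold change -0.74, SE 0.09, limma adjusted p = 8.51e-05).

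CCT3, the gamma subunit, had the largest fold change in NB4 and the next largest in MOLM-13. Its MOLM-13 libraries read 103, 86.7 and 111 RPKM with DMSO and 38.4, 57.8 and 47.8 with FP54, and its NB4 libraries 161, 179.7 and 186 against 91.1, 84.7 and 84.8. The fall was 52.1% in MOLM-13 (log2 fold change -1.07, SE 0.17, limma adjusted p = 0.00456) and 50.5% in NB4 (log2 fold change -1.01, SE 0.08, limma adjusted p = 6.69e-06). The FP54 values of NB4 were tight, at 86.9 ± 3.68, while those of MOLM-13 spread over 48.0 ± 9.70.

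CCT6A, the zeta subunit, sits beside CCT3 in the ring. In MOLM-13 it read 73.3, 49.6 and 68.1 RPKM with DMSO and 26.3, 33.6 and 38.7 with FP54, and in NB4 204, 196 and 231 against 143, 147 and 145. It fell by 48.4% in MOLM-13 (log2 fold change -0.95, SE 0.19, limma adjusted p = 0.0102) and by 31.1% in NB4 (log2 fold change -0.53, SE 0.08, limma adjusted p = 0.000473). Processed pseudogenes of CCT6A and of other subunits lie elsewhere in the genome, and how reads that fit several places were counted was not stated.

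CCT2, the beta subunit, in which inherited mutations cause an early retinal disease, is a neighbour of CCT5 and CCT4 in the ring. Its MOLM-13 libraries read 64.7, 44.9 and 58.6 RPKM with DMSO and 27.3, 29.6 and 37.4 with FP54, a fall of 43.9% (log2 fold change -0.83, SE 0.18, limma adjusted p = 0.0127). The NB4 libraries read 124, 118 and 149 with DMSO and 86.1, 88.4 and 86.3 with FP54, a fall of 33.4% (log2 fold change -0.58, SE 0.10, limma adjusted p = 0.000586). The highest and lowest DMSO libraries of NB4 lay further apart for this gene than did its FP54 libraries, but neither line's groups overlapped.

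CCT7, the eta subunit, stands between CCT8 and CCT5 in the ring. MOLM-13 gave 74.1, 54.3 and 76.0 RPKM with DMSO and 35.7, 37.5 and 43.9 with FP54, and NB4 202, 236 and 238 against 165, 165 and 152. The groups were apart in both lines. The loss was 42.7% in MOLM-13 (log2 fold change -0.79, SE 0.16, limma adjusted p = 0.0113) and 28.6% in NB4 (log2 fold change -0.48, SE 0.09, limma adjusted p = 0.00121).

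TCP1, the alpha subunit that gave the complex its older name, and CCT4, the delta subunit, which like CCT5 can form rings alone, fell less. TCP1 read 91.9, 72.5 and 84.5 RPKM with DMSO and 53.4, 51.4 and 65.7 with FP54 in MOLM-13, and 171, 155 and 176 against 125, 114 and 117 in NB4. Its log2 fold change was -0.55 (SE 0.15, limma adjusted p = 0.0321) in MOLM-13 and -0.50 (SE 0.08, limma adjusted p = 0.000682) in NB4, and no DMSO library reached down to an FP54 library. CCT4 read 99.6, 88.0 and 94.9 RPKM with DMSO and 62.3, 66.8 and 74.5 with FP54 in MOLM-13, and 189, 182 and 196 against 148, 139 and 139 in NB4. Its log2 fold change was -0.47 (SE 0.13, limma adjusted p = 0.0329) in MOLM-13 and -0.42 (SE 0.08, limma adjusted p = 0.00118) in NB4, again with groups that did not overlap.

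CCT8, the theta subunit, was the only member without a call in MOLM-13. Its DMSO libraries read 265, 250.3 and 234 RPKM and its FP54 libraries 205, 191 and 237, so that the highest FP54 value passed the lowest DMSO value. The log2 fold change was -0.25, with a 95% confidence interval from -0.56 to 0.06 (limma adjusted p = 0.228), which leaves room both for no change and for a fall as large as that of TCP1. In NB4 the gene read 117, 116 and 119 with DMSO and 91.0, 86.3 and 91.9 with FP54, the tightest DMSO values of the 8, and it fell by 23.5% (log2 fold change -0.39, SE 0.07, limma adjusted p = 0.00150).

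**Figure D2:**
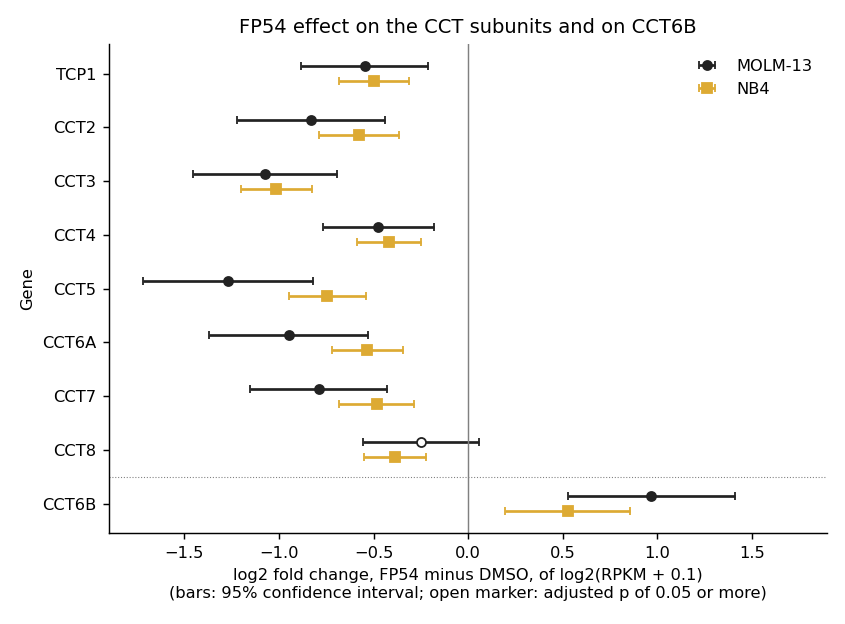
log2 fold change (FP54 minus DMSO, of log2(RPKM + 0.1)) of the 8 subunits and of CCT6B, with 95% confidence intervals from limma, in MOLM-13 (black circles) and NB4 (yellow squares), where an open marker has an adjusted p of 0.05 or more. The subunits lie between -1.27 and -0.25 in MOLM-13 and between -1.01 and -0.39 in NB4, and CCT6B lies on the other side of 0 in both.

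The MOLM-13 calls leaned on single libraries. Without FP54 replicate 1, which held the lowest FP54 value for 6 of the 8, 2 subunits were called (CCT3 and CCT5), and without DMSO replicate 3 there were 3 (CCT3, CCT5 and CCT6A), while every fold change stayed negative. Calls over all genes dropped in the same settings. Genes called lower went from 905 of 9710 tested to 213 of 9697 without FP54 replicate 1. They went to 224 of 9705 without DMSO replicate 3. Quantile normalization ended the calls of CCT4 (log2 fold change -0.39) and TCP1 (-0.46) in MOLM-13, leaving 5. In NB4 all 8 calls held without any 1 library, but quantile normalization took the fold changes of CCT4 and CCT8 to -0.20 (limma adjusted p = 0.0616) and -0.18 (limma adjusted p = 0.0731). Scaling by the median ratio over genes moved the median of all NB4 genes from 0.07 to -0.13 and the calls from 2164 lower and 2935 higher to 3602 lower and 1889 higher, and quantile normalization gave 2769 lower and 2334 higher. The subunit fold changes of NB4 ran from -1.21 (CCT3) to -0.58 (CCT8) under the median ratio. All 8 thus kept a negative fold change under each scaling, with 8 called lower under the median ratio and 6 under quantile normalization. In NB4 the mean over 413 olfactory receptor genes, which these cells should not use, was 0.0017 to 0.00375 RPKM with DMSO and 0.05 to 0.0551 with FP54, and the 8 calls were the same in number after it was subtracted. The 8 myeloid markers moved too. In NB4 their sum was lower with FP54 (1743 to 1826 RPKM) than with DMSO (2317 to 2565), which followed MPO, at 2170.2 and 1116 RPKM, and SPI1 was also called lower, while ANPEP (136 to 553), ITGAM (3.64 to 14.3) and CSF3R (4.201 to 6.80) were called higher. In MOLM-13 the sum was 344 to 364 RPKM with DMSO and 366 to 409 with FP54, with MPO called lower (16.1 to 3.79) and ITGAM and CSF3R called higher. The part of these in the subunit result was not tested. Of the markers of other cell types, the B cell, fibroblast and erythroid lists had no gene at a mean of 1 RPKM in either line. The T cell list (1 of 3 genes, CD3D) summed to 6.55 to 7.33 RPKM with DMSO and 11.1 to 11.6 with FP54 in NB4, and the endothelial list (1 of 3, PECAM1) to 25.6 to 28.8 and 41.2 to 43.2 in MOLM-13 and to 1.92 to 2.59 and 4.71 to 6.14 in NB4, which was likewise not tested. The epithelial list summed to 6.79 to 8.98 and 5.02 to 7.37 RPKM in MOLM-13 (1 of 4 genes at 1 RPKM, KRT18, called lower) and to 20.1 to 22.0 and 22.3 to 24.3 in NB4 (3 of 4, with KRT8 called higher), with CDH1 at or near 0 in both.

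The second question was whether FP54 acted on a subunit differently in the 2 lines. A limma model over all 12 libraries called no subunit, where 14.2% of 8849 genes tested in both lines were called. With limma-voom on recovered read counts the number of subunits called was also 0. At an unadjusted p below 0.05 there was 1, CCT5, with a difference (NB4 minus MOLM-13, log2) of 0.52, a 95% confidence interval from 0.01 to 1.04 and a limma adjusted p of 0.169. CCT6A followed with 0.42 (-0.06 to 0.89, limma adjusted p = 0.235), then CCT7 with 0.31 (-0.11 to 0.72, limma adjusted p = 0.315) and CCT2 with 0.25 (-0.20 to 0.70, limma adjusted p = 0.462). For TCP1, CCT3 and CCT4 the difference was 0.05, 0.06 and 0.06, with intervals that reached from -0.37 at the lowest to 0.49 at the highest. CCT8 was the only subunit with a negative difference, -0.14 (-0.46 to 0.19, limma adjusted p = 0.587). Without DMSO replicate 2 of MOLM-13, the library with its lowest DMSO values, CCT5 was called (0.71, limma adjusted p = 0.0363).

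Levels of the subunits against each other were next described, since the barrel holds equal numbers of each. RPKM divides by gene length, and here the exons of each gene summed to between 2701 (CCT4) and 5638 (CCT5) bases, so an order of levels also carries the length that was used. With DMSO all 8 stood high among the tested genes, between the 92.6 and the 98.9 percentile in MOLM-13 and between the 97.0 and the 98.8 percentile in NB4. Summed RPKM of the 8 went from 769 ± 73.9 (832, 688 and 788) with DMSO to 509 ± 54.6 (466, 492 and 570.4) with FP54 in MOLM-13, and from 1426 ± 84.5 to 955 ± 27.3 in NB4 (SD, n = 3). The 2 lines sit in separate tables, and their levels were not tested against each other.

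In MOLM-13 the order with DMSO was CCT8, CCT3, CCT4, TCP1, CCT7, CCT6A, CCT2 and CCT5, by mean RPKM. CCT8 alone stood clear of its neighbour, and the other 6 of the 7 neighbouring pairs overlapped between libraries. CCT8 made up 32.7% ± 3.42 of the summed RPKM with DMSO and 41.4% ± 2.64 with FP54 (SD, n = 3). With FP54 the order was CCT8, CCT4, TCP1, CCT3, CCT7, CCT6A, CCT2 and CCT5, with 5 of 7 pairs overlapping, so CCT3 went from rank 2 to rank 4 and CCT5 stood clear of CCT2 at the end. The highest subunit was 4.63 times the lowest with DMSO and 9.43 times with FP54.

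In NB4 the 8 levels lay closer, with the highest 1.92 times the lowest with DMSO and 1.85 times with FP54. The order with DMSO was CCT7, CCT6A, CCT5, CCT4, CCT3, TCP1, CCT2 and CCT8, in which 5 of 7 neighbouring pairs overlapped and the gaps lay between CCT5 and CCT4 and between TCP1 and CCT2. With FP54 it was CCT7, CCT6A, CCT4, CCT5, TCP1, CCT8, CCT2 and CCT3, with 4 of 7 pairs overlapping. With DMSO, CCT8 thus had the highest mean of the subunits in MOLM-13 (249.8 ± 15.6 RPKM) and the lowest in NB4 (117 ± 1.47), where it overlapped CCT2.

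Each subunit was also set against the geometric mean of the other 7 in the same library, a log2 ratio that does not depend on library scaling. The ratios of a library are bound together, since lower ratios of some subunits raise those of others. A higher ratio is therefore no rise of the mRNA itself, and the shifts below are not separate results. CCT8 went from 1.80 ± 0.238 with DMSO to 2.40 ± 0.173 with FP54 in MOLM-13, and from -0.65 ± 0.0808 to -0.43 ± 0.0591 in NB4 (SD, n = 3). CCT5 went the other way, by -0.57 in MOLM-13 and -0.19 in NB4. The ratio of CCT4 was higher with FP54 in both lines, by 0.34 and 0.19. CCT3 changed by -0.49 in NB4 and by -0.34 in MOLM-13, where FP54 replicate 2 (0.26) lay among the DMSO values (0.18 to 0.37). TCP1 differed by 0.26 in MOLM-13. For all of these but CCT3 in MOLM-13 the 3 DMSO and 3 FP54 libraries did not overlap, and the exact two-sided permutation p was 0.1, the smallest that 3 against 3 allows, or 0.2 after Benjamini-Hochberg adjustment over the 8 subunits of a line. The exact test could not pass 0.05 with 3 against 3 libraries, and no other test was run on the ratios.

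**Figure D3:**
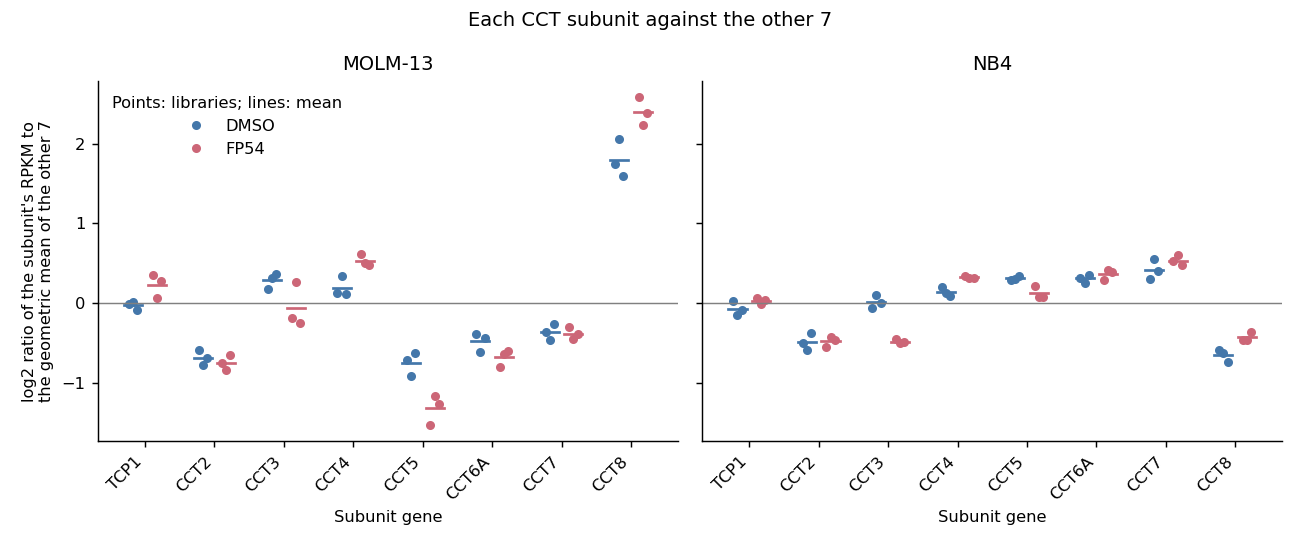
log2 ratio of each subunit's RPKM to the geometric mean of the other 7 in the same library, in MOLM-13 (left) and NB4 (right), for DMSO (blue) and FP54 (red), where points are libraries and short lines are means. CCT8 lies at 1.80 with DMSO and 2.40 with FP54 in MOLM-13 but below 0 in NB4, and CCT3 in NB4 goes from 0.01 to -0.48.

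Promoters were read because the 8 genes moved in 1 direction. RefSeq (GRCh38.p14) gave a window from 250 bases before to 50 bases after the start site for 7 of the 8 genes, all but CCT6A. Both strands were searched for 5 motifs. The CCAAT box (CCAAT, the letters bound by the factor NF-Y) was in 4 of 7 subunit windows and in 35.7% of 27305 promoters. The heat shock element (GAANNTTC, bound by HSF1) was in 1 (6.87% of promoters), the ETS site (CCGGAAGT) in 1 (4.44%), and the E-box (CACGTG, bound by MYC among others; 7.43%) and the cAMP response element (TGACGTCA; 1.98%) in none. GC content of the windows ran from 57.7% to 65.3%, where the median promoter had 58.3%. A match is a description of letters, not a bound site. The runs below show the subunit matches, each read on the strand of its gene with the motif in capitals, where ATTGG is CCAAT on the opposite strand. The runs of CCT3, CCT2, CCT8 and TCP1 that come first show the CCAAT box, and the last 2 show the single matches to the other motifs.
CCT3, chr1:156338351-156338380, minus strand, motif at -75: actaaggctgtcaATTGGtctgtttttgtg
CCT3, chr1:156338310-156338339, minus strand, motif at -34: gatgggtgcggtgATTGGcgactaccttga
CCT2, chr12:69585355-69585384, plus strand, motif at -91: ggcccgtggggctCCAATcaaaatgggacg
CCT8, chr21:29073695-29073724, minus strand, motif at -63: aaagggtgggctaATTGGagagccaggaag
TCP1, chr6:159789740-159789769, minus strand, motif at -154: catcggctatctaATTGGacaaaaatgccg
TCP1, heat shock element, chr6:159789815-159789844, minus strand, motif at -231: tcgtttgaggcGAAGGTTCaacctcttccc
CCT2, ETS site, chr12:69585432-69585461, plus strand, motif at -16: cgtgtggcgtcACTTCCGGcttccttcagt

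CCT5, CCT4 and CCT7 held none of the 5 motifs in their windows. Any link between a motif and the fold changes was not tested.

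Several subunit genes start beside another gene on the opposite strand, so the neighbours were read as well (hg38, GENCODE v44). The closest such starts were 31 bases from CCT5 (ATPSCKMT, a lysine methyltransferase of mitochondria), 52 from CCT4 (COMMD1), 80 from CCT6A (PSPH, the last enzyme of serine synthesis), 108 from TCP1 (MRPL18, a mitochondrial ribosomal protein) and 180 from CCT7 (PRADC1). MRPL18 fell in NB4 (log2 fold change -0.66, limma adjusted p = 0.000156) and stood at -0.45 in MOLM-13 (limma adjusted p = 0.0507), close to the values of TCP1. PSPH fell in MOLM-13, from 20.5 ± 3.07 to 9.20 ± 2.02 RPKM (log2 fold change -1.16, limma adjusted p = 0.00518), beside a fall of CCT6A of -0.95, while in NB4 it read 41.6 ± 1.20 and 44.6 ± 1.34 (log2 fold change 0.10, limma adjusted p = 0.288) and CCT6A fell by -0.53. ATPSCKMT did not pass in either line (0.58, limma adjusted p = 0.250 in MOLM-13, and -0.05, limma adjusted p = 0.739 in NB4), next to the largest subunit fall in MOLM-13. Its MOLM-13 level was low, at 1.31 ± 0.539 RPKM with DMSO and 2.02 ± 0.866 with FP54. Only 24 to 117 reads stood behind these values, and the groups overlapped. COMMD1 (-0.26, limma adjusted p = 0.0474) and PRADC1 (-0.30, limma adjusted p = 0.0213) were called lower in NB4 and neither was called in MOLM-13, and the COMMD1 call was lost under 11 of 17 alternatives and the PRADC1 call under 3 of 17. In MOLM-13 PRADC1 rested on 9 to 41 reads.

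**Figure D4:**
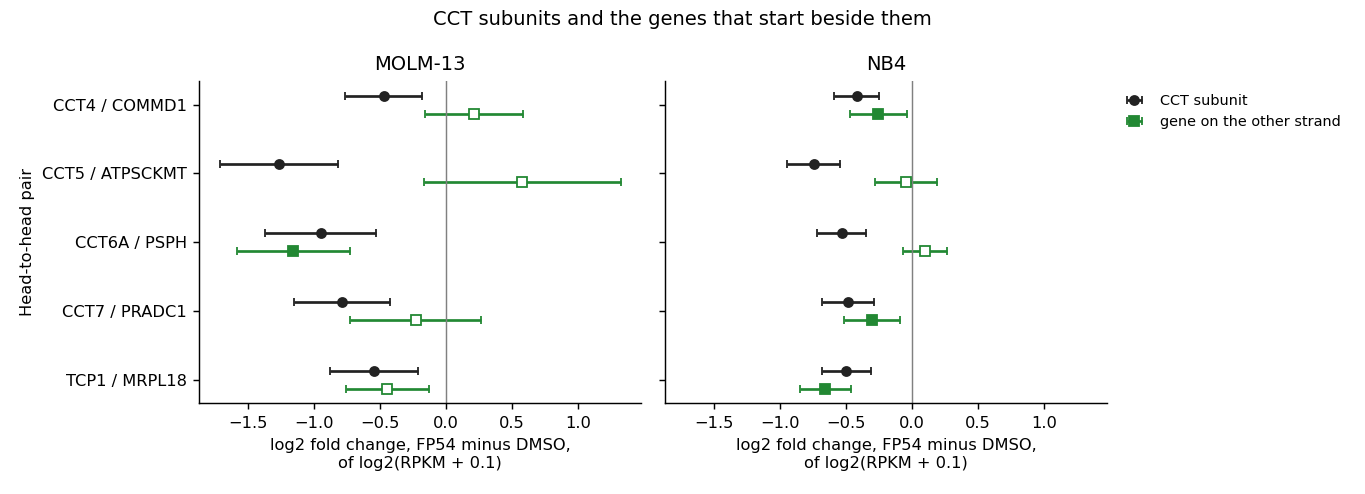
log2 fold change with 95% confidence interval from limma for 5 CCT subunits (black circles) and the gene that starts within 180 bases on the other strand (green squares), in MOLM-13 (left) and NB4 (right), where an open marker has an adjusted p of 0.05 or more. Each subunit lies below 0, whereas ATPSCKMT is at 0.58 and -0.05 and PSPH at -1.16 and 0.10. The MOLM-13 values of ATPSCKMT and PRADC1 rest on few reads (24 to 117 and 9 to 41).

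At their other ends, TCP1 and ACAT2, a cytosolic thiolase that runs on the opposite strand, share 615 bases. ACAT2 fell more than TCP1, by -1.08 in MOLM-13 (limma adjusted p = 0.00228) and -1.37 in NB4 (limma adjusted p = 1.25e-06), and since no source said that counting used strand, reads in the shared bases cannot be assigned to either gene. SUMF2, which begins 12 bases past CCT6A on the same strand, rose in NB4 (log2 fold change 0.60, limma adjusted p = 9.32e-05) and was level in MOLM-13 (-0.04, limma adjusted p = 0.895). USP16, which meets CCT8 end to end, was not called in MOLM-13 (-0.32, limma adjusted p = 0.108) or in NB4 (-0.13, limma adjusted p = 0.309). The neighbours of CCT2, CCT3 and the far sides of CCT4, CCT5, CCT7 and CCT8 were not called or lay too low to test. Among them were LRRC10, listed at 0 in all 12 libraries, and TSACC, at no more than 20 reads. TSACC (chr1:156337314-156346995) lies on the other strand within the annotated span of CCT3, which ends at chr1:156367873. The CCT3 promoter window above (chr1:156338243-156338542) also lies inside that span and is covered by TSACC. Motifs and neighbours of CCT3 were thus read from different starts.

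CCT6B, a paralog of CCT6A that is best known from testis, was the only gene of the list of other chaperonins that was called higher. It read 1.14, 1.02 and 1.32 RPKM with DMSO and 2.42, 2.64 and 2.04 with FP54 in MOLM-13, on 66 to 199 reads, and 1.91, 1.69 and 1.48 against 2.40, 2.93 and 2.14 in NB4, on 109 to 169 reads. The groups did not overlap in either line. It rose in MOLM-13 (log2 fold change 0.97, SE 0.20, limma adjusted p = 0.0110) and in NB4 (0.53, SE 0.15, limma adjusted p = 0.0128), and lay far below CCT6A, at 1.16 ± 0.152 against 63.7 ± 12.4 RPKM in MOLM-13 with DMSO. The NB4 call was lost under quantile normalization (0.16, limma adjusted p = 0.370) and median-ratio scaling (0.34, limma adjusted p = 0.0628) and without DMSO replicate 3 or FP54 replicate 2 (limma adjusted p = 0.0539 and 0.0715). The MOLM-13 call was lost without FP54 replicate 1 (limma adjusted p = 0.0551). Without a filter on low values both calls were lost (limma adjusted p = 0.0661 in MOLM-13 and 0.0538 in NB4).

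The partners and reported clients were taken as lists, and each count below is read beside the shares of all genes called given above. Prefoldin and its relatives had 9 tested genes, of which 2 were lower and 1 higher in MOLM-13 and 3 lower in NB4, with medians of -0.37 and -0.22. PFDN2 (-1.12) and URI1 (-0.55) fell and PFDN5 (0.58) rose in MOLM-13, while PFDN6 (-0.86) and PFDN1 (-0.48) had the largest falls in NB4, so no prefoldin gene was called in both lines. The URI1 call was lost under 8 of 17 alternatives, the PFDN5 call under 4 of 17 and the PFDN2 call under 2 of 17. Median-ratio scaling raised the NB4 count to 7 lower. Of 4 tested co-chaperones 2 fell in each line, PDCL3 in both (-0.77 and -0.67), with TXNDC9 in MOLM-13 (-0.86) and PDCD5 in NB4 (-0.58). In MOLM-13 the PDCL3 call was lost under 5 of 17 alternatives and the TXNDC9 call under 4 of 17. The NB4 calls of PDCL3 and PDCD5 held under all 17. PDCL3 and TXNDC9 are phosducin-like and bind CCT directly.

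Of the mitochondrial chaperonin and other relatives, HSPD1, which forms the mitochondrial folding barrel, fell in both lines (-0.78 in MOLM-13 and -0.54 in NB4), and its lid HSPE1 fell in NB4 (-0.94). The MOLM-13 call of HSPD1 was lost under 2 of 17 alternatives, with FP54 replicate 1 left out among them. In MOLM-13 HSPE1 stood at -1.02 without a call (limma adjusted p = 0.120), on 22 to 269 reads. That list held 1 lower and 1 higher of 6 tested genes in MOLM-13 and 3 lower and 1 higher of 5 in NB4, the higher gene being CCT6B each time. Cytosolic heat shock chaperones had 9 of 14 lower in MOLM-13 and 11 of 14 in NB4, with none higher and medians of -0.83 and -0.69, beside -0.81 and -0.52 for the CCT subunits. HSPH1 (-1.50 and -1.24) and HSPA8 (-1.47 and -1.07), which together hold and release unfolded chains, were the largest falls in MOLM-13, and HSPH1 and HSP90AA1 (-1.10) in NB4.

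Of the actin and tubulin genes, 3 were lower and 1 higher of 13 tested in MOLM-13, and 5 lower and 5 higher of 14 in NB4, with medians of -0.14 and 0.03. These are 23.1% lower and 7.69% higher in MOLM-13 and 35.7% each way in NB4, against 9.32%, 9.84%, 22% and 29.8% of all genes. TUBA1A fell in MOLM-13 (-1.03), as did TUBB6 (-0.75), while TUBG2 rose (0.85). The TUBB6 call was lost under 4 of 17 alternatives and the TUBG2 call under 4 of 16, while that of TUBA1A held under all 17. In NB4 TUBA1B (-0.56) and TUBB6 (-0.52) fell, while ACTG1, cytoplasmic gamma actin, rose from 302 ± 21.8 to 593 ± 28.6 RPKM (0.98, limma adjusted p = 1.03e-05) and TUBB4A rose from a low level (1.02). Tubulin genes are alike enough that reads can be split between them. The 7 tubulin cofactors, which take over tubulin after CCT, had 1 call in each line, TBCD (0.70) in MOLM-13 and TBCEL (0.38) in NB4. The TBCD call was lost without any of 5 of its libraries, and the TBCEL call under 9 of 16 alternatives, both scalings among them. Other reported clients had 3 lower and 1 higher of 16 tested in MOLM-13 and 5 lower and 4 higher of 16 in NB4, with medians of -0.26 and -0.01. The NB4 shares, 31.2% lower and 25% higher, were near those of all genes. CCNE1 (-0.86), a cyclin, and MLST8 (-0.57), a WD40-repeat part of the mTOR complexes, fell in MOLM-13. The CCNE1 call was lost under 4 of 17 alternatives and the MLST8 call under 5 of 17. In NB4 PLK1 (-0.69) and CDC20 (-0.60) fell and GNB5 rose (0.68). STAT3 rose in both lines (0.46 and 0.40). Its MOLM-13 call was lost under 8 of 17 alternatives and its NB4 call under 1 of 17, with median-ratio scaling among them in both lines.

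**Figure D5:**
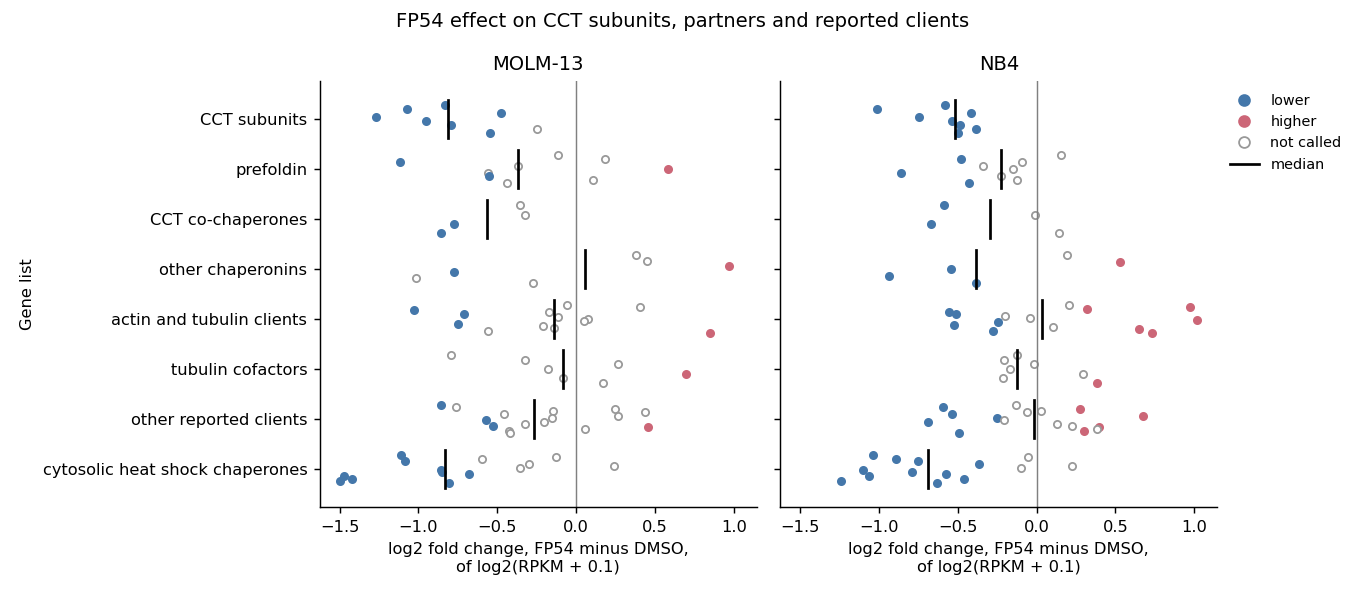
log2 fold change of every tested gene of the CCT subunits and of 7 lists of partners, relatives and reported clients, in MOLM-13 (left) and NB4 (right), as blue points where called lower, red where called higher and open grey where not called. Black lines are medians, at -0.81 and -0.52 for the CCT subunits and -0.83 and -0.69 for the heat shock chaperones, while the client lists lie on both sides of 0.

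Genes with the pattern most like that of the 8 were sought by Pearson's r of log2 RPKM, centred within each line, against the mean of the subunits over the 12 libraries, which share the treatment contrast and library depth. The top 5 were POP1 (0.993), a protein of RNase P, AEN (0.990), a nuclease, MRPL3 (0.989), a mitochondrial ribosomal protein, HSPA8 (0.989) and DCTPP1 (0.989), a dCTP-cleaving enzyme. These 5 were picked for likeness to a mean that fell in both lines, so their own falls largely follow from the choice. Each was called lower in both lines, though the MOLM-13 call of DCTPP1 was lost under 2 of 17 alternatives. Their log2 fold changes ran from -1.47 (HSPA8) to -1.06 (MRPL3) in MOLM-13 and from -1.12 (POP1) to -0.65 (MRPL3) in NB4. Among the members themselves, r against the mean of the other 7 ran from 0.840 for CCT8 and 0.948 for CCT3 to 0.989 for CCT4, so CCT8 followed the others least.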

How the data were processed

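Poly(A) RNA of 12 libraries was analysed, 3 for each line and treatment. Per the labels and the study's methods, the authors trimmed reads with Cutadapt 4.8, removed duplicates with Clumpify, aligned to hg38 with STAR 2.7.11b and counted reads on protein-coding GENCODE genes with featureCounts 2.0.3, and deposited RPKM per library. Removing duplicates without molecular tags can lower the values of very abundant genes. The gene lengths, strand setting and treatment of reads with several matches were not given in the sources used here. RPKM values were tested as log2(RPKM + 0.1) with limma 3.58.1 (R 4.3.3, trend) per line for genes with a mean of at least 1 RPKM, with Benjamini-Hochberg adjustment over all of them, and an interaction model covered genes tested in both lines. Multiplied by GENCODE v44 exon lengths (20329 of 20411 genes), between 99.0% and 99.5% of low values gave whole reads within 0.1, and these gave depths and a limma-voom alternative. Scripts were tested on simulated data. A gene of the client list is not reported here. The members and gene lists were chosen with earlier results of these data known. Named genes were the 8 subunits, FTO, the 2 largest called decreases and increases of each list and line, the nearest protein-coding genes on each side, and the 5 genes most like the subunits. Alternatives covered the pseudocount, the filter, scaling, variance model, replicate block, the study's p and fold limits, and leaving out each library.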

Additional observations from a re-analysis of the deposited data

Results flagged for a closer look

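Groups of 3 libraries were too small for a check of single outlying libraries. Differences between the lines were tested in the interaction model (NB4 minus MOLM-13, log2, limma with Benjamini-Hochberg adjustment), and none of the 8 subunits passed. Of the partners, clients and neighbours tested in both lines 12 of 79 passed (15.2%, beside 14.2% of all genes), and the 8 of these within the naming rule are given here. TUBA1A, a tubulin that fell in MOLM-13 and rose in NB4, differed by 1.35 (limma adjusted p = 5.13e-05), although its NB4 call (0.32) was lost under median-ratio scaling and without FP54 replicate 1 or 3. PSPH, which starts 80 bases from CCT6A, differed by 1.26 (limma adjusted p = 0.00127), and SUMF2, which follows CCT6A, by 0.63 (limma adjusted p = 0.0244), whereas CCT6A itself differed by 0.42 (limma adjusted p = 0.235). Among prefoldin subunits PFDN2 differed by 1.02 (limma adjusted p = 0.0292), PFDN1 by -0.66 (limma adjusted p = 0.0240) and PFDN5 by -0.73 (limma adjusted p = 0.00822). The CCT-binding TXNDC9 differed by 1.00 (limma adjusted p = 0.00734) and ACTG1 by 0.57 (limma adjusted p = 0.0459).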

How the results depend on the processing

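No subunit fold change within a line changed sign under any alternative. The count of 7 subunits called lower in MOLM-13 became 0 without a filter, a setting that called 130 of 20411 genes, and ran from 2 to 7 with 1 library left out. The 2 came without FP54 replicate 1, where 213 of 9697 tested genes were called lower. The 8 of NB4 became 4 under the study's limits (an unadjusted p under 0.01 together with a log2 change of 0.5 or more), since the changes of TCP1, CCT4, CCT7 and CCT8 were smaller. The 0 subunits with a different effect ran from 0 to 1 with 1 library left out. The differences of TCP1, CCT3, CCT4 and CCT8 between lines, which were not called, changed sign under some alternatives, with ranges from -0.12 to 0.20, -0.11 to 0.22, -0.12 to 0.20 and -0.31 to 0.08. Of 54 calls on named genes that are no members, 21 were lost when some library was left out, and none changed sign. Same-numbered DMSO and FP54 libraries did not deviate together (correlations -0.26, -0.13 and -0.06 in MOLM-13 and -0.14, 0.07 and 0.12 in NB4), and not every library correlated best with its own number. In MOLM-13 the highest correlations joined other numbers, at 0.59 (DMSO 1 with FP54 3), 0.49 (DMSO 2 with FP54 1) and 0.47 (DMSO 3 with FP54 2). In NB4 the highest was 0.22 (DMSO 1 with FP54 3). Why libraries of other numbers deviated together was not tested, and the replicate block joined same numbers only. With the replicate block 6 subunits were lower in MOLM-13 and 8 in NB4, 0 differed between lines, and 1540, 5002 and 899 genes were called, against 1860, 5099 and 1258. Subtracting the olfactory receptor level was chosen after seeing the data. With 3 libraries a group, small changes such as that of CCT8 in MOLM-13 cannot be resolved.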
